A study of Microtus ochrogaster with 40 samples.

Results

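The core genes of the circadian clock were followed through single nuclei taken from the accumbens of the prairie vole, Microtus ochrogaster, known for the bonds its mates form. The set was fixed by gene symbol and holds 10 genes: Per1, Per2, Per3, Cry1, Cry2, Arntl, Clock, Nr1d1, Nr1d2 and Dbp. Of these, 7 are listed among the 19130 genes of the count tables, and Per3, Cry2 and Nr1d2 are not analysed here. The nucleus accumbens is the ventral part of the striatum, and most of its neurons are inhibitory medium spiny neurons that carry either the D1 or the D2 dopamine receptor.

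Each of the 40 libraries came from 1 animal, whose punched tissue was frozen and whose nuclei were isolated separately. All animals had lived for 16 days with an unfamiliar partner, which was of the opposite sex for mates and of the same sex for peers. No genotype, drug or age is named for any group, and no group lived alone. The groups were 11 female mates, 8 female peers, 11 male mates and 10 male peers. The hour at which brains were taken is not given in the sources used here, so no gene could be placed on a daily cycle.

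The clock is a feedback loop of transcription that runs in most cells of the body. CLOCK and ARNTL (also called BMAL1) bind DNA as a pair and switch on the Per and Cry genes, whose proteins return to the nucleus and block that pair. A second loop runs through Nr1d1 (REV-ERB alpha), a nuclear receptor that represses Arntl. Dbp is a transcription factor driven directly by CLOCK and ARNTL, which carries the rhythm to output genes. Per1 and Per2 are also switched on by neuronal activity, and Per1 by glucocorticoid hormone. In a tissue sampled around the day, Per, Nr1d1 and Dbp transcripts peak in phases close to each other and Arntl peaks in nearly the opposite phase, so genes of shared phase can move together from animal to animal when the time of sampling varies.

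The libraries held between 1825 and 12519 barcodes, and 178387 nuclei were kept, with a median of 653 to 2159 unique molecular identifiers (UMIs, counted RNA molecules) per nucleus in a library. The library of male mate 2 stood apart, with the most barcodes and the fewest UMIs per nucleus. Between any 2 libraries the shared barcodes came to at most 2.22% of the smaller one. Clusters were given class names from marker genes, written X-like because no annotation of nuclei was used, and 17.3% of the nuclei stayed unnamed. The largest classes were D1 medium spiny neuron-like (D1-like, 26012 nuclei), D2 medium spiny neuron-like (D2-like, 25649), glutamate neuron-like (23355) and astrocyte-like (18316). The glutamate neuron-like class varied most in size, from 19 to 2363 nuclei in an animal. Levels are CPM, the counts of a gene scaled to the total UMIs of the summed nuclei of 1 class in 1 animal, and a class entered for an animal only with at least 20 nuclei. No gene lengths were used, so levels are compared between classes for 1 gene, never between genes.

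Clock, the first gene of the activating pair, had higher means in the largest neuron classes than in the glial classes. Its mean level was 62.6 ± 15.5 CPM (SD, n = 39 animals) in glutamate neuron-like nuclei, 60.8 ± 14.8 (n = 40) in D2-like nuclei and 55.2 ± 11.2 (n = 40) in D1-like nuclei. Astrocyte-like nuclei had the lowest mean of the 13 classes, 29.6 ± 12.8 CPM, near the 31.5 ± 27.3 of microglia-like nuclei, whose median (23.6 CPM, on 2 UMIs per animal) was lower. Astrocyte-like nuclei had 15.2, 25.2 and 67.4 CPM as the lowest, median and highest of 39 animals. Oligodendrocyte precursor-like nuclei, a glial class, had 48.5 ± 27.2 CPM, above the 40.0 ± 26.0 of immature neuron-like nuclei. Within animals, Clock was lower in astrocyte-like than in D2-like nuclei in 38 of 39 and lower than in parvalbumin interneuron-like nuclei in 39 of 39. The last class is mixed: 3671 of its 9876 nuclei form a cluster led by Vip, Crabp1 and Kit, and the other cluster holds Sst beside Pvalb among its leading genes, so its levels are not those of parvalbumin interneurons alone. The 2 highest means, in cholinergic interneuron-like nuclei (70.8 ± 33.1, n = 26) and vascular-like nuclei (69.1 ± 41.6, n = 39), rested on medians of 5.5 and 5 Clock UMIs per animal.

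Arntl, its partner, ran differently across the classes. Its mean was highest in astrocyte-like nuclei, where the lowest, median and highest animals had 27.5, 50.7 and 109.7 CPM. The mean there was 53.3 ± 17.7 CPM, against 47.1 ± 8.34 in glutamate neuron-like, 42.3 ± 9.98 in D2-like and 40.2 ± 8.92 in D1-like nuclei. Oligodendrocyte-like nuclei had 19.3 ± 9.67 CPM, below the astrocyte-like value of the same animal in 39 of 39. Parvalbumin interneuron-like nuclei, which had one of the higher Clock levels, held 26.3 ± 6.98 CPM of Arntl and were below D2-like nuclei in 38 of 40 animals. Neighbouring classes in the order of Clock, and likewise of Arntl, did not differ by more than the SD of their differences within animals.

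Among the named classes, the repressor Per2 was highest in 2 unlike ones. Oligodendrocyte precursor-like nuclei, the dividing progenitors of myelinating cells, had 188 ± 77.7 CPM, with 78.9, 183 and 377 CPM in the lowest, median and highest of 40 animals. Glutamate neuron-like nuclei had 179 ± 36.9 CPM, with 116, 183 and 283 CPM as lowest, median and highest of 39. Mature oligodendrocyte-like nuclei held only 64.7 ± 29.7 CPM, less than the precursor-like nuclei of the same animal in 39 of 40. Glutamate neuron-like nuclei exceeded the next class, D2-like, in 34 of 39 animals, by a mean of 35.8 ± 28.9 CPM, and D1-like nuclei in 37 of 39. The step from glutamate neuron-like to D2-like nuclei was the only one in the order of Per2 that was larger than the SD of the differences within animals.

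Per1, its paralog in the repressor complex, had another order. Its highest means among the named classes were in D1-like (72.4 ± 17.2 CPM), eccentric medium spiny neuron-like (70.3 ± 15.3) and D2-like nuclei (69.8 ± 15.2), the 3 classes named as spiny neurons. An unnamed cluster led by Fosb, Nr4a3 and Npas4 was higher, at 154 ± 45.9 CPM (n = 39). After the spiny neuron classes came astrocyte-like nuclei, close below them at 65.9 ± 20.5 CPM (n = 39). In D1-like nuclei the lowest, median and highest animals had 40.7, 71.7 and 134 CPM, and the highest was male mate 2. Parvalbumin interneuron-like nuclei had 36.9 ± 10.9 CPM, below D1-like nuclei in 40 of 40 animals. Glutamate neuron-like nuclei, with the second highest Per2, had 56.7 ± 11.0 CPM of Per1, lower than D1-like nuclei in 33 of 39. Precursor-like nuclei, with the highest Per2, had 46.7 ± 32.3 CPM of Per1 on a median of 4.5 UMIs per animal.

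Cry1, the cryptochrome partner of the Per proteins, was sparse in every class. Class means ran from 5.94 ± 9.56 CPM in microglia-like to 15.8 ± 9.10 in oligodendrocyte-like nuclei. It was higher in D2-like (14.0 ± 4.08) than in glutamate neuron-like nuclei (8.44 ± 2.88) in 36 of 39 animals. The median animal gave 20 Cry1 UMIs in D2-like and 12 in glutamate neuron-like nuclei, and no neighbouring classes in its order differed beyond the SD of their differences.

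Nr1d1, the repressor of Arntl, was set apart by astrocyte-like nuclei. Their level was 163 ± 33.6 CPM, with 97.5, 152 and 235 CPM in the lowest, median and highest of 39 animals. D2-like nuclei had 60.4 ± 10.5, D1-like 57.0 ± 7.42 and glutamate neuron-like 55.0 ± 9.43 CPM. In every animal with both classes the astrocyte-like level was above the level in D1-like (39 of 39), D2-like (39 of 39) and glutamate neuron-like nuclei (38 of 38). The ratio of means was 6.79 against oligodendrocyte-like nuclei (24.0 ± 13.0 CPM), and vascular-like nuclei came second with 84.4 ± 53.2 CPM. The step from astrocyte-like to vascular-like nuclei, 76.9 ± 56.4 CPM and positive in 36 of 38 animals, was larger than the SD of the differences. By mean CPM, a share of a class's UMIs and not an amount per nucleus, astrocyte-like nuclei held the highest Nr1d1 and Arntl of the 13 classes. By the same measure they held the lowest Clock.

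Dbp, the output gene, split the neurons. It reached 283 ± 80.1 CPM in astrocyte-like nuclei, with 124, 287 and 435 CPM as the lowest, median and highest of 39 animals. D2-like nuclei had 223 ± 33.9 and D1-like nuclei 212 ± 34.5 CPM, while glutamate neuron-like nuclei had 75.0 ± 14.5 CPM, lower than D1-like and D2-like nuclei in 39 of 39 animals. Eccentric medium spiny neuron-like nuclei lay between, at 149.8 ± 25.0 CPM, and somatostatin interneuron-like nuclei followed at 79.7 ± 34.4 (n = 31). That step, 67.2 ± 31.9 CPM within animals and positive in 29 of 31, was the only one in the order of Dbp larger than its SD. Oligodendrocyte-like nuclei were at 46.4 ± 20.8 CPM, below the astrocyte-like level in 39 of 39 animals. The order of Dbp and the order of Per2 therefore crossed: glutamate neuron-like nuclei had more Per2 and less Dbp than both main spiny neuron classes.

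**Figure D1:**
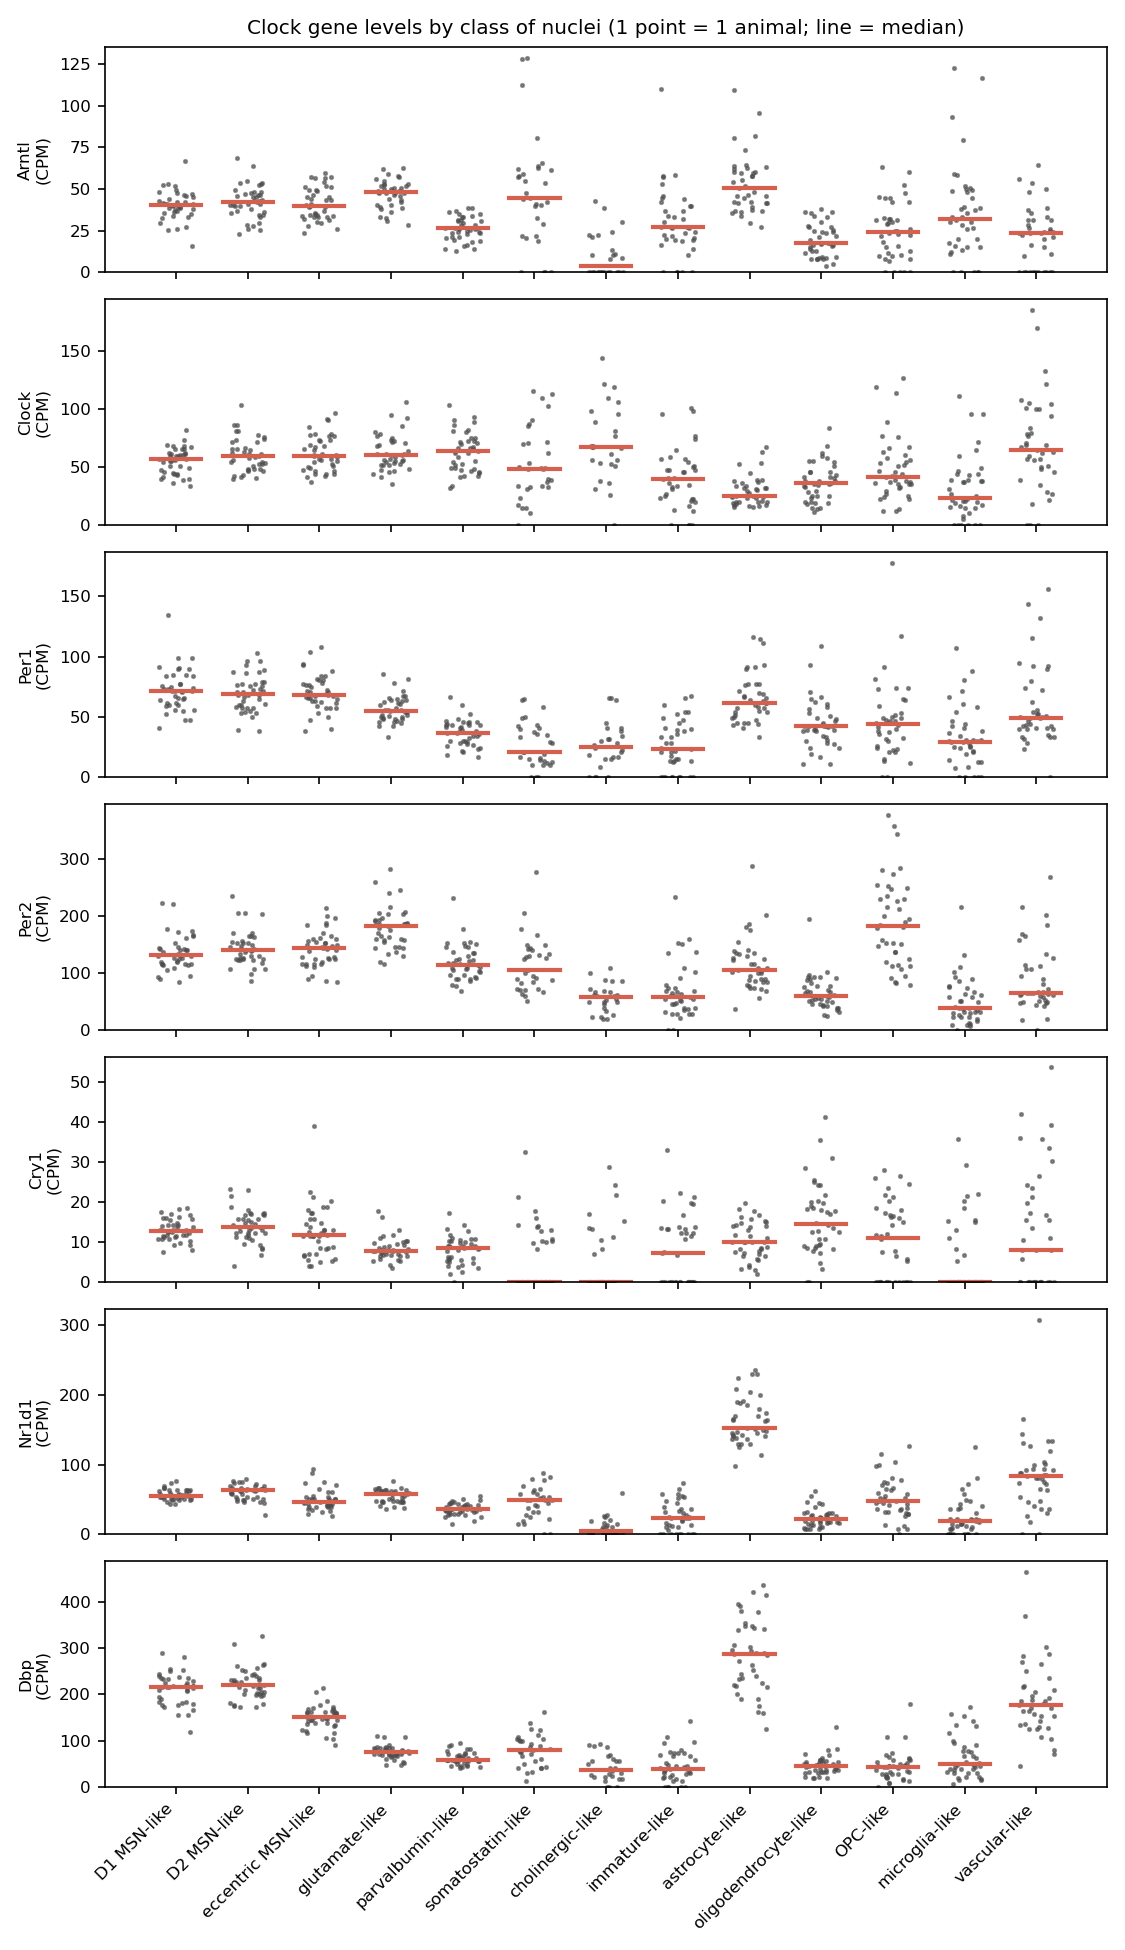
Level of each clock gene in CPM (vertical axes, each starting at 0) by class of nuclei, with 1 point per animal and a line at the median. Nr1d1 stands out in astrocyte-like nuclei, Per2 in precursor-like and glutamate neuron-like nuclei, and Dbp is low in glutamate neuron-like nuclei where Per2 is high.

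RNA released from broken nuclei can add reads of one class to another, and its size can be read from genes made mostly in 1 class. Slc1a2, the astrocyte glutamate transporter, reached 1.36% of its astrocyte-like level in D1-like and 5.46% in glutamate neuron-like nuclei. Slc17a7, the vesicular glutamate transporter of cortical neurons, reached 3.62% of its glutamate neuron-like level in astrocyte-like and 8.88% in vascular-like nuclei. The mean level in D1-like nuclei was 0.349 of that in astrocyte-like nuclei for Nr1d1 and 0.748 for Dbp. The part of released RNA in the levels of the clock genes was not tested. The share of nuclei with at least 1 Per2 UMI was 35.0% in glutamate neuron-like nuclei and 8.55% in astrocyte-like nuclei, whose median depths were 2455 and 778 UMIs, so detection shares were not read as an order. For Nr1d1 the share was 12.1% in astrocyte-like, 12.0% in D1-like and 13.1% in glutamate neuron-like nuclei. For Arntl it was 4.13%, 8.66% and 11.4%, and for Dbp 19.2%, 36.4% and 16.5%. Levels in CPM are shares of a class's UMIs, so their order is not an order of RNA per nucleus.

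Animals differed in these genes by moderate amounts. In all nuclei together, the highest animal had 1.99 times the lowest for Per1, 2.41 times for Per2, 2.52 times for Clock, 2.12 times for Dbp, 1.70 times for Nr1d1 and 1.78 times for Arntl. In astrocyte-like nuclei Per2 ranged from 36.2 CPM in female peer 7 to 287 CPM in male mate 5, a ratio of 7.94. The coefficient of variation that edgeR estimated beyond counting error for Per2 was 0.26 in precursor-like and 0.29 in astrocyte-like nuclei, in the 96.7 and 94.3 percentile of genes when set against genes of like abundance. In D1-like nuclei it was 0.17 for Per2, 0.13 for Arntl and 0.10 for Nr1d1, and in astrocyte-like nuclei 0.19 for Arntl and 0.16 for Nr1d1.

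Whether an animal's level in 1 class went with its level in another was asked with Pearson's r over animals of log2(CPM + 5), with 100000 permutations for every gene and adjustment over all genes tested in both classes. Taken in pairs, 5 large classes (D1-like, D2-like, glutamate neuron-like, astrocyte-like and oligodendrocyte-like) gave 10 pairs of classes. Of 55 correlations of clock genes that could be computed, 25 had an adjusted p under 0.05 and all 25 were positive. Between 2 neuron classes 16 of 21 clock gene correlations were called, where 63.9% of all such gene correlations were. Between a neuron and a glial class 7 of 30 were called, against 25.5% of all genes, and between astrocyte-like and oligodendrocyte-like nuclei 2 of 4, against 18.9%. Set against these shares, the clock genes as a group were not called more often between neurons and glia than genes at large.

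Per2 was the clock gene called most often, in 9 of 10 pairs of classes, and 5 of its 6 correlations between neurons and glia were called. Per2 was called in 8 pairs on the means of couples, with the means of library blocks removed and without male mate 2. With doublets kept, and without male peer 1, Per2 was called in 10. Between glutamate neuron-like and astrocyte-like nuclei its r was 0.62 (38 animals, permutation p = 2e-05, adjusted p = 0.00058), with Spearman's rho 0.50 (permutation p = 0.00189). The r of 0.62 stood in the 95.7 percentile of all genes tested for this pair of classes, and r was 0.54 without the 2 animals farthest from the median. In each such check between classes the 2 animals were chosen in the first-named class only, so extreme animals of the second class could stay. Between astrocyte-like and oligodendrocyte-like nuclei r was 0.57 (39 animals, permutation p = 0.00013, adjusted p = 0.00248; rho 0.47, permutation p = 0.00284), and 0.45 without the 2 farthest animals. The pair not called was D2-like with oligodendrocyte-like, where r was 0.32 (adjusted permutation p = 0.118). Male mate 1 had the highest Per2 in D1-like nuclei, in D2-like nuclei and in all nuclei, and male mate 5 in glutamate neuron-like and astrocyte-like nuclei.

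Per1, Clock, Dbp and Nr1d1 were called in every pair of neuron classes and in few pairs with glia, a difference that was not itself tested. Between D1-like and D2-like nuclei of 40 animals, r was 0.70 for Per1 (rho 0.73), 0.70 for Clock (rho 0.70) and 0.73 for Dbp (rho 0.78), each with a permutation p of 1e-05 for r and for rho, the smallest that the permutations could give, and an adjusted p of 3.33e-05. The same r for Nr1d1 was 0.57 (permutation p = 0.00011, adjusted p = 0.00027; rho 0.57, permutation p = 0.0003). Without the 2 farthest animals these values were 0.74, 0.68, 0.80 and 0.52. Between D1-like and D2-like nuclei 7580 of all 10269 genes tested were called. The median r of all genes in this pair of classes was 0.51, so that of Nr1d1 was near the middle, in the 58.7 percentile. Of the 3 neuron pairs, Nr1d1 kept 2 with the means of library blocks removed (D1-like with glutamate neuron-like, r = 0.33, adjusted permutation p = 0.0699) and 1 on the means of couples. The count between neurons and glia was 1 of 6 for Per1, 1 of 6 for Clock, 0 of 6 for Dbp and 0 of 3 for Nr1d1. The single calls of Per1 (D1-like with oligodendrocyte-like, r = 0.47, adjusted permutation p = 0.0151) and Clock (D1-like with astrocyte-like, r = 0.43, adjusted permutation p = 0.0314) were lost without the 2 farthest animals, with r of 0.38 and 0.36. Others lay just outside the threshold and passed it elsewhere: between D2-like and astrocyte-like nuclei Per1 had r = 0.39 (adjusted permutation p = 0.0515; 0.00744 without the 2 farthest animals) and Clock r = 0.39 (adjusted permutation p = 0.0521; 0.0156 without female peer 1). Dbp was also shared between astrocyte-like and oligodendrocyte-like nuclei (r = 0.49, permutation p = 0.00173, adjusted p = 0.0155; rho 0.39, permutation p = 0.0165; 39 animals), but not past the threshold without the 2 farthest animals (r = 0.35, adjusted p = 0.144) or with doublets kept (r = 0.22, adjusted p = 0.324).

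Arntl and Cry1 were the least shared. Arntl was called in 1 of 6 pairs, D2-like with glutamate neuron-like nuclei (r = 0.43, permutation p = 0.00603, adjusted p = 0.0132; rho 0.47, permutation p = 0.00273; 39 animals). On the means of couples Arntl was called in 0 of 6. Between D1-like and D2-like nuclei its r was 0.24, in the 17.7 percentile of all genes. Cry1 was called in none of 3, with r between -0.08 and 0.21 and adjusted permutation p from 0.263 to 0.68. The animal median in D2-like nuclei was 20 UMIs for Cry1 and 62 for Arntl, beside 80.5 for Nr1d1, 84.5 for Clock, 89 for Per1 and 303 for Dbp. Genes that mark 1 class and were read in the others also varied together across classes, as Slc17a7 did in 7 of 10 pairs and Mbp, a myelin gene, and Penk in 6 of 10 each, while Slc1a2 did in 1 of 10 and Pdyn in 0 of 3. The part of released RNA in the shared variation of the clock genes was not tested.

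**Figure D2:**
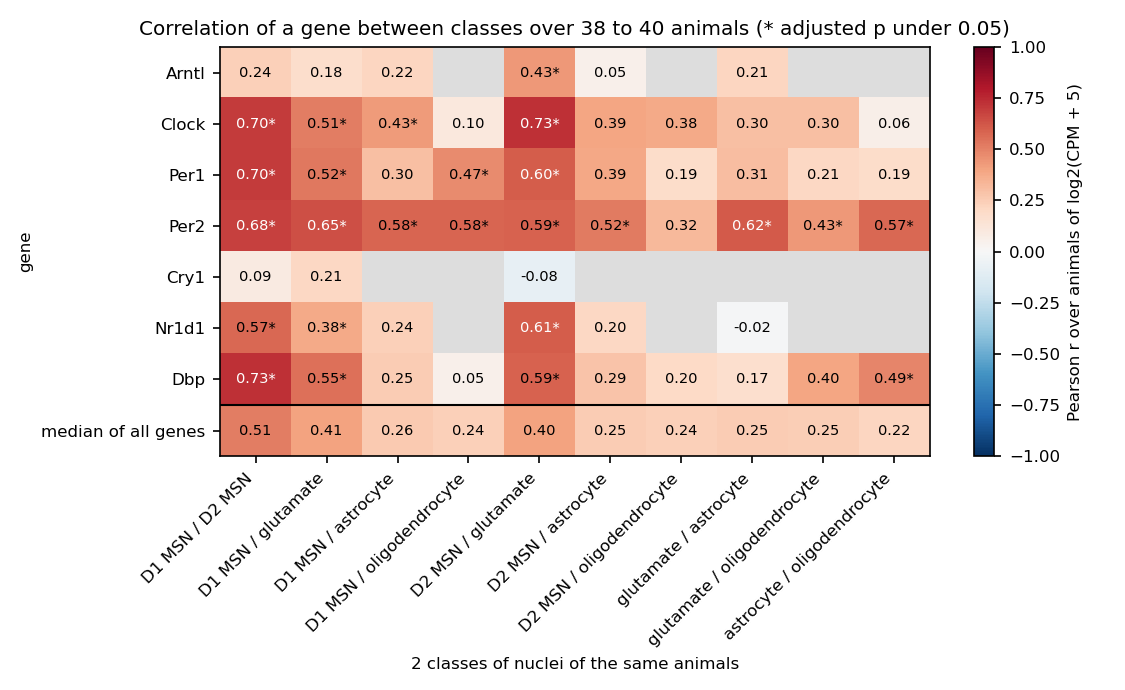
Pearson r over animals of log2(CPM + 5) between the 2 classes named on the horizontal axis, for each clock gene and, in the last row, the median of all genes, with * where the adjusted p was under 0.05. Per2 is marked in 9 of 10 columns, while Per1, Clock, Dbp and Nr1d1 are marked in all 3 neuron columns.

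Clock genes were then compared with each other. Each animal's level of a gene was set to the class mean in each of the 5 classes and averaged over the classes in which the animal had at least 20 nuclei, which removes differences in class make-up between animals. Male mate 2 lacked the astrocyte-like and male peer 5 the glutamate neuron-like class, so the averages of these animals rest on the remaining classes. Only Per1, Per2, Clock and Dbp passed the filter on low counts in all 5 classes. A pair of clock genes was called where the adjusted p over all genes was under 0.05 both with the first and with the second gene as the reference. Over the 5 classes the levels of Per1, Per2 and Clock were correlated: 3 of the 6 pairs were called. Of pairs of any gene with one of the clock genes tested, 13.2% were called with that clock gene as the reference. The count was 922 of 5524 genes for Per1, 922 for Per2, 1062 for Clock and 0 for Dbp. The r was 0.59 for Per1 with Clock (permutation p = 7e-05; rho 0.57, permutation p = 0.00014), 0.58 for Per1 with Per2 (permutation p = 0.00011; rho 0.54, permutation p = 0.00046) and 0.56 for Per2 with Clock (permutation p = 0.00021; rho 0.61, permutation p = 8e-05), each over 40 animals and with adjusted p-values from 0.00101 to 0.004. Without the 2 animals farthest for the first-named gene r was 0.51, 0.44 and 0.48, and after removing the means of blocks of 10 library numbers it was 0.55, 0.52 and 0.47. Dbp did not follow them, with r of 0.31 with Per2, 0.24 with Per1 and 0.02 with Clock, and adjusted permutation p-values from 0.156 to 0.991.

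In the 3 neuron classes alone, all 7 listed genes could be compared, in 21 pairs. With a clock gene as the reference, 6.33% of all pairs of a gene with a clock gene were called. From clock gene to clock gene the count ran from 7 of 9988 for Cry1 to 2016 for Clock, with 1288 for Per1. Of the pairs of clock genes, 3 of 21 were called. The strongest was Nr1d1 with Dbp (r = 0.60, permutation p = 6e-05, adjusted p up to 0.0207; rho 0.55, permutation p = 0.00029). Per2 with Clock (r = 0.54, permutation p = 0.00036; rho 0.49, permutation p = 0.00168) and Per1 with Per2 (r = 0.48, permutation p = 0.00188; rho 0.37, permutation p = 0.0218) were the others. Per1 with Clock, called over the 5 classes, was not called here (r = 0.41, permutation p = 0.00951; rho 0.41, permutation p = 0.00861; adjusted p-values of 0.0616 and 0.0478), but was with doublets kept and at double clustering resolution, which gave 4 called pairs each. Clock with Nr1d1 had the lowest r, -0.40 (permutation p = 0.0108; rho -0.30, permutation p = 0.0555), with adjusted p-values of 0.0508 and 0.132, and was not called. Arntl had no called partner, with r of -0.14 with Nr1d1, 0.02 with Per2, 0.06 with Per1 and 0.19 with Dbp, and no adjusted p under 0.428. Per2, which was called with Per1 and Clock, had r of -0.10 with Nr1d1 and -0.07 with Dbp, the other called pair. With the means of library blocks removed only Nr1d1 with Dbp was called (r = 0.56), and on the means of couples none of 21 was. With group means removed, and without male mate 2, the pair of Per1 with Per2 was lost and 2 were called. Without the 2 animals farthest for the reference gene, none of the 21 pairs passed the threshold with both references. With the first-named gene as the reference, r was 0.55 for Nr1d1 with Dbp, 0.40 for Per2 with Clock and 0.51 for Per1 with Per2. The higher adjusted permutation p of the 2 references was 0.0856, 0.242 and 0.274. It can belong to the r with the other reference, which leaves out other animals.

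**Figure D3:**
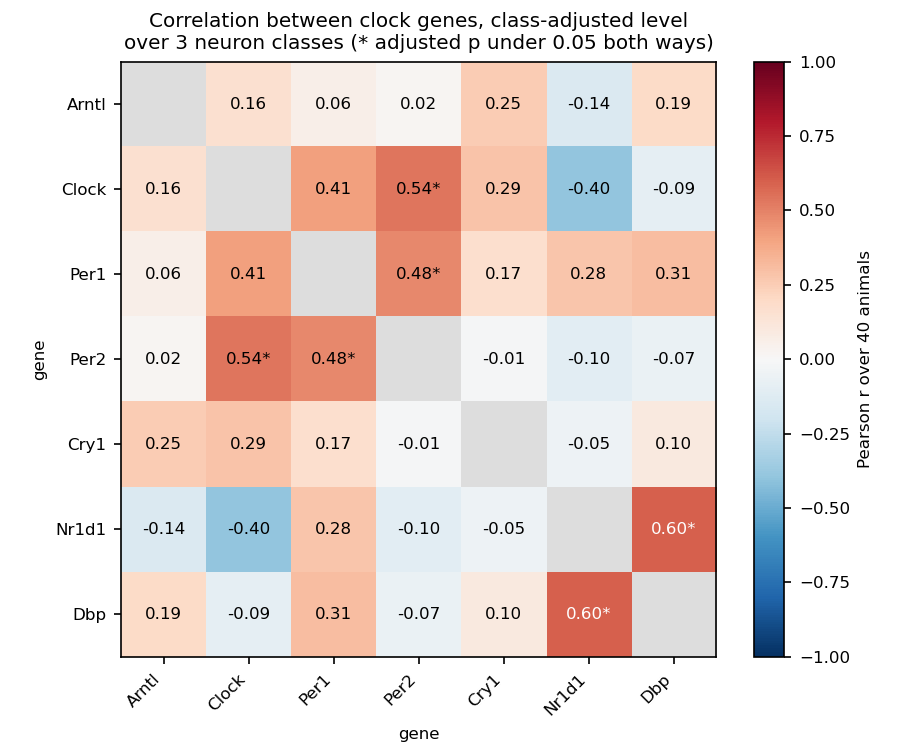
Pearson r over 40 animals between clock genes of the level set to the class mean and averaged over the 3 neuron classes. Nr1d1 with Dbp (0.60) and Per2 with Clock (0.54) are the highest values, and Clock with Nr1d1 (-0.40) is the lowest.

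Each clock gene was also set beside every other gene, and genes with the highest r are named. Over the 5 classes and 5524 genes, Srgap3 was among the 2 genes most like Clock (r = 0.83, adjusted permutation p = 0.000269). Those most like Per1 were Cdc42bpb, a kinase that acts on the cytoskeleton (r = 0.82), and Dock4 (r = 0.77), and those most like Per2 were Thoc3, of a complex in RNA export (r = 0.72), and Pstk (r = 0.69). For Dbp they were Ube2z (r = 0.68, adjusted permutation p = 0.0552) and Lzts3 (r = 0.58, adjusted permutation p = 0.387), neither past the threshold. In the 3 neuron classes and 9988 genes, Dbp was most like Mxd1 (r = 0.72, adjusted permutation p = 0.0111) and Oat (r = 0.70), Per1 most like Shank3 (r = 0.83) and Maz (r = 0.77), Per2 most like Ulk2 (r = 0.69) and Trim9 (r = 0.66), and Clock most like Tasor2 (r = 0.88) and Ythdf3 (r = 0.85). Nr1d1 was most like Park7 (r = 0.73) and Itpka (r = 0.71), Arntl most like Gmds (r = 0.74) and an unnamed gene (ENSMOCG00000019395, r = 0.73), and Cry1 most like Cenpq (r = 0.69) and Gabra2 (r = 0.63). These partners depend on the setting: on the means of couples no gene was called with Dbp (132 of 9988 over all animals), Nr1d1 (164) or Cry1 (7), and without the 2 farthest animals none was with Per2 (548) or Cry1, which also had none at double clustering resolution. Each r is over 40 animals and is the highest by choice, so it is no measure of how closely these genes follow the clock in other animals.

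Agreement within couples was tested next. The labels do not name cohabiting partners. Each odd library number and the next even one held a female and a male mate in 11 cases, 2 female peers in 4 and 2 male peers in 5, which made 20 library-number couples. Cagemates and neighbours in processing cannot be told apart in this scheme. An F test of edgeR asked whether couples differed beyond the group means. Of 53 tests of clock genes, 1 passed an adjusted p of 0.05, where 0.93% of 90781 tests of all genes did (1.47% of the 10322 genes tested in D2-like nuclei), and 8 of 53 (15.1%) had an unadjusted p under 0.05, where 13.7% of all did. A single call among 53 tests and a share of 15.1% are near the background of all genes.

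The gene called was Clock in D2-like nuclei (edgeR p = 0.000639, adjusted p = 0.0458). In mate couple 1 the animals had 85.8 and 103 CPM, the highest of all couples, in mate couple 2 they had 75.9 and 74.1, and in mate couple 10 they had 71.3 and 73.0. In peer couple 13 they had 86.1 and 81.4 CPM, while in mate couple 16 they had 47.9 and 47.1 and in peer couple 6 48.2 and 40.3. Couple 8 was unlike, with 48.1 and 80.9 CPM in its female and male. The intraclass correlation measures how far the 2 animals of a couple agree once group means are removed. It is 1 for full agreement and negative where they tend to lie on opposite sides. For Clock in D2-like nuclei it was 0.57, in the 98.4 percentile of all genes there, with 0.59 in 11 mate couples and 0.54 in 9 peer couples. Both animals of a peer couple share 1 group mean, which pulls their value below 0, so mate and peer values here and below are not on the same footing. The 2 animals of a couple differed by a median of 0.19 on the log2(CPM + 5) scale, against 0.31 for an animal and the next library outside its couple and 0.29 for all other pairs of animals.

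The call sat near the threshold. With doublets kept the adjusted p was 0.0512, without male mate 2 it was 0.061, without female peer 1 0.0532 and without male peer 1 0.0505, and beyond blocks of 10 library numbers it was 0.111 (unadjusted edgeR p = 0.000303). DESeq2 gave 0.00169, but it called several times more couple tests over all genes than edgeR did, as given below. Clock did not agree within couples in D1-like nuclei, where the intraclass correlation was -0.01. In glutamate neuron-like nuclei it was 0.49 (edgeR p = 0.00667, adjusted p = 0.365), with 0.84 in 11 mate couples and -0.01 in 8 peer couples, a difference that was not tested. In all nuclei it was 0.51 (edgeR p = 0.00547, adjusted p = 0.0904, and adjusted p = 0.00158 with DESeq2). In these 2 strata an animal was about as near to the next library outside its couple as to its couple. The median differences within couples were 0.20 in glutamate neuron-like and 0.17 in all nuclei. To the next library they were 0.18 and 0.18, and for all other pairs of animals 0.27 and 0.24.

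**Figure D4:**
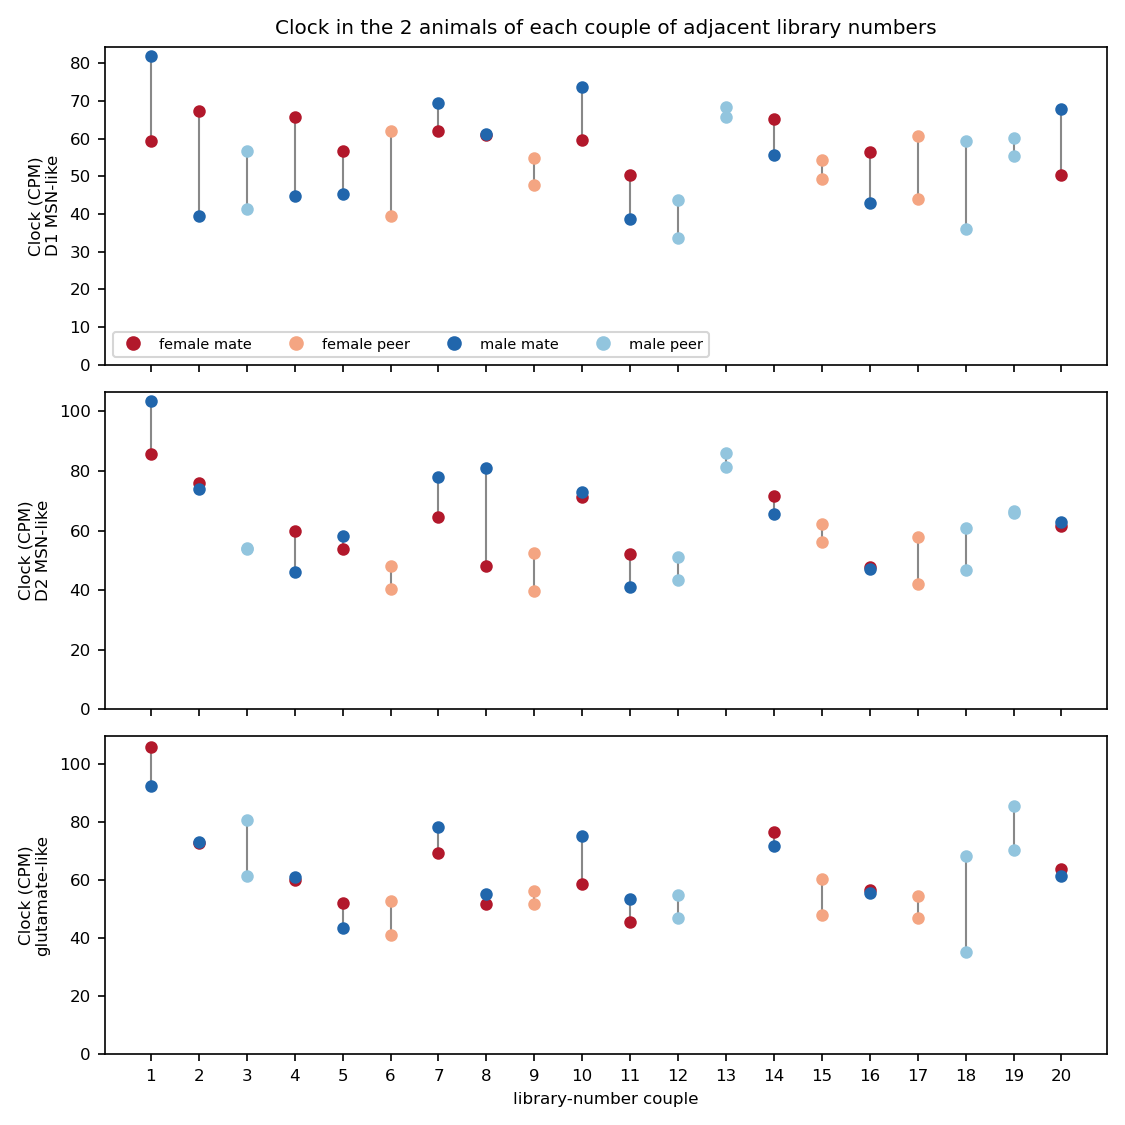
Level of Clock in CPM (vertical axes from 0) in the 2 animals of each library-number couple (horizontal axis), joined by a line and coloured by group. Couple 1 is the highest in D2-like nuclei at 85.8 and 103 CPM and couple 8 is the least alike, at 48.1 and 80.9 CPM.

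The other clock genes gave no call between couples. Per2 in parvalbumin interneuron-like nuclei came closest (intraclass correlation 0.49, edgeR p = 0.00522, adjusted p = 0.151), followed by Per1 in glutamate neuron-like nuclei (0.50, edgeR p = 0.0154, adjusted p = 0.416). Per2 in the main spiny and glutamate classes, where it was shared between classes of the same animal, had intraclass correlations of 0.04 in D1-like, -0.003 in D2-like and 0.04 in glutamate neuron-like nuclei. Dbp had 0.75 in 10 mate couples and -0.48 in 9 peer couples of astrocyte-like nuclei, a difference that was not tested, and Arntl had between -0.46 and 0.33 in the strata tested. Nr4a1, a gene switched on by neuronal activity, was called between couples in all nuclei, in the glutamate class and in the eccentric spiny class, and Nr4a3 in all nuclei, so that 4 of 63 tests of 10 activity genes passed, where 0.93% of all tests did, and 21 (33.3%) had an unadjusted p under 0.05, where 13.7% of all did.

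Pairing was the contrast the study was built on. No clock gene differed between mates and peers at an adjusted p of 0.05 (0 of 53 tests with edgeR and 0 with DESeq2), as for all genes, of which 0% were called in 93691 tests with edgeR. At an unadjusted p under 0.05 there were 11 of 53, where 5.42% of all tests were, and 8 of the 11 were Per1 or Per2, in classes of the same animals and therefore not independent. Their lowest adjusted p was 0.698.

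Per2 had its higher mean in mates in the 9 of 9 strata (all nuclei and classes) where it passed the filter on low counts. Outside them its mean was lower in mates in vascular-like nuclei (78.5 against 104 CPM), near 115 CPM in both in somatostatin interneuron-like nuclei, and higher in mates in microglia-like (62.6 against 35.4), immature neuron-like (75.7 against 58.0) and cholinergic interneuron-like nuclei (63.2 against 47.5). In all nuclei, mates had 99.0, 143 and 225 CPM as lowest, median and highest of 22 animals, and peers 93.2, 127 and 157 of 18. The ranges overlapped, 17 of 22 mates lay above the peer mean, and the log2 difference was 0.21 (SE 0.08, edgeR p = 0.00997, adjusted p = 0.698). In astrocyte-like nuclei 21 mates had 67.4, 114 and 287 CPM and 18 peers 36.2, 97.0 and 138, with overlapping ranges and a log2 difference of 0.40 (SE 0.15, edgeR p = 0.0103, adjusted p = 0.841). Differences of 0.22 in D1-like, 0.18 in D2-like and 0.18 in glutamate neuron-like nuclei also had an unadjusted p under 0.05.

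Per1 in all nuclei had 49.5, 68.6 and 93.4 CPM as lowest, median and highest of 22 mates, and 47.0, 61.1 and 76.2 of 18 peers. The ranges overlapped, with 15 of 22 mates above the peer mean, and the log2 difference was 0.19 (SE 0.07, edgeR p = 0.0146, adjusted p = 0.698). It was 0.29 (SE 0.12) in astrocyte-like nuclei and 0.19 (SE 0.09) in glutamate neuron-like nuclei. With the blocks of library numbers in the fit, the all-nuclei differences were 0.15 for Per1 and 0.18 for Per2. The all-nuclei values also carry the class make-up of each library, in which fewer nuclei of a class and less RNA per nucleus cannot be told apart.

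The other low p-values were scattered. Clock in oligodendrocyte-like nuclei had 17.8, 41.3 and 83.4 CPM in mates and 10.9, 24.7 and 55.4 in peers, with 19 of 22 mates above the peer mean and a log2 difference of 0.59 (SE 0.20, edgeR p = 0.00421, adjusted p = 0.945), on a median of 8 UMIs per animal. The highest was male mate 2. Means of successive blocks of 10 library numbers were 47.3, 36.5, 40.1 and 23.5 CPM, and these blocks held 2, 4, 6 and 6 peers. The part of library number in this difference was not tested beyond the fit with blocks. Nr1d1 in the eccentric spiny class had a lower mean in mates (log2 difference -0.23, SE 0.11, edgeR p = 0.0375, adjusted p = 0.97), and Dbp in vascular-like nuclei (-0.33, SE 0.17, edgeR p = 0.0483, adjusted p = 1.0). Neither passed the threshold. The median log2 difference of the 7 clock genes was 0.03 in all nuclei, beside -0.005 for all 13713 genes tested, and in the 5 neuron classes in which at least 6 of them were tested it ran from -0.02 in D1-like to 0.13 in D2-like nuclei, beside -0.002 for the 10322 genes tested in the latter.

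**Figure D5:**
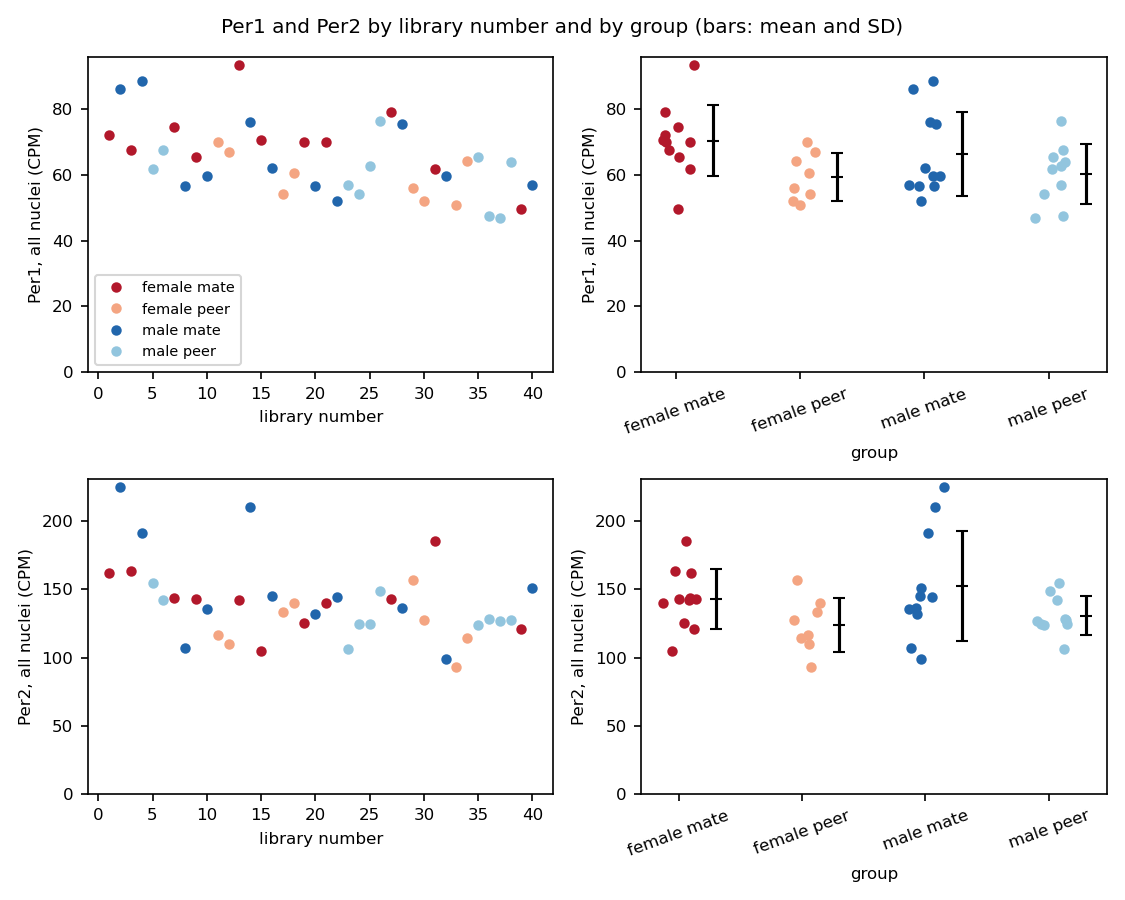
Per1 and Per2 in all nuclei of each animal in CPM (vertical axes from 0), by library number on the left and by group on the right, where bars give the mean and SD. Mates and peers overlap for both genes, and Per1 is lower at high library numbers, where peers are more frequent.

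Library number moved with Per1. Over the 3 neuron classes its level fell with library number (r = -0.55 over 40 animals, permutation p = 0.00032, adjusted p = 0.009; rho -0.53, permutation p = 0.0005). Without the 2 libraries farthest from the median number r was -0.56, but no animal was left out for its Per1 level. Per1 was 1 of 7 clock genes called, where 7.6% of 9989 genes were. In all nuclei the means of successive blocks of 10 library numbers were 69.9, 68.0, 63.4 and 56.6 CPM for Per1 and 157, 136, 135 and 127 CPM for Per2, and these blocks held 2, 4, 6 and 6 peers. The r of Per2 with library number was -0.33 (permutation p = 0.038, adjusted p = 0.183; rho -0.27, permutation p = 0.086). The 5 library measures were number, UMIs per nucleus, mitochondrial share, nuclei kept and glutamate neuron-like share. Of their 35 relations with the 7 genes, only Per1 with library number was called, where 4.56% of all genes' relations were. What the library number stands for is not given in the sources used here, and its part in the Per1 difference between mates and peers was not tested beyond the blocked fit.

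Sex and its interaction with pairing gave no call among the clock genes. For sex, 0 of 53 tests passed an adjusted p of 0.05 with edgeR and with DESeq2, where 0.0235% of all tests did, and 4 had an unadjusted p under 0.05, where 5.46% of all did. Dbp had the higher mean in females in D1-like nuclei, with overlapping ranges of 177, 225 and 288 CPM as lowest, median and highest of 19 females and 119, 210 and 252 of 21 males (log2 difference 0.15, SE 0.07, edgeR p = 0.0315, adjusted p = 0.968). In D2-like nuclei the difference was 0.15 (SE 0.06, edgeR p = 0.0238, adjusted p = 0.89). Cry1 in D2-like nuclei (-0.27) and Nr1d1 in parvalbumin interneuron-like nuclei (-0.24) had lower means in females, neither past the threshold. For the interaction, 0 of 53 passed, as 0% of all tests did, and 1 had an unadjusted p under 0.05, Cry1 in D1-like nuclei (0.50, SE 0.21, edgeR p = 0.0197, adjusted p = 1.0), where 2.7% of all tests did.

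A wider list of 26 clock-related genes, the regulators, kinases, ligases and outputs around the loop, was read in the same fits. Of these, 24 were tested in at least 1 stratum, in 175 tests. None passed an adjusted p of 0.05 for pairing, sex or their interaction, and 9 (5.14%), 11 (6.29%) and 6 (3.43%) had an unadjusted p under 0.05, near the 5.42%, 5.46% and 2.7% of all tests. For pairing the 3 lowest p-values belonged to Usp2, a deubiquitinase and clock output, in glutamate neuron-like nuclei (log2 difference -0.17, edgeR p = 0.0151, adjusted p = 0.797), Gsk3b, a kinase that acts on clock proteins, in astrocyte-like nuclei (0.14, p = 0.0273, adjusted p = 0.908) and Nampt, of the NAD salvage pathway, in glutamate neuron-like nuclei (0.28, p = 0.028, adjusted p = 0.797). For sex they were Gsk3b in glutamate neuron-like nuclei (-0.16, edgeR adjusted p = 0.649) and in all nuclei (-0.11, adjusted p = 0.503) and Cipc, a CLOCK inhibitor, in astrocyte-like nuclei (0.43, adjusted p = 0.917). For the interaction they were Ciart in glutamate neuron-like (-0.57) and Gsk3b (0.29) and Rora (-0.37) in astrocyte-like nuclei, each with an edgeR adjusted p of 1.0.

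Between couples, 0 of 170 tests of this list passed with edgeR and 20 (11.8%) had an unadjusted p under 0.05, where 13.7% of all tests did. The lowest p-values were those of Usp2 in astrocyte-like (p = 0.00095, adjusted p = 0.0741), Cipc in D2-like (p = 0.00403, adjusted p = 0.122) and Bhlhe40 in all nuclei (p = 0.00553, adjusted p = 0.0911). Between classes, 52 of 148 correlations (35.1%) of 21 of these genes were called, with a median r of 0.28, where 63.9% of all genes' were between neurons, 25.5% between neurons and glia and 18.9% between the glial classes. Gsk3b was called in 10 of 10 pairs, and Tef and Hlf, the close relatives of Dbp among the PAR bZIP factors, in 4 and 6 of 10. Usp2 had a median r of -0.16. In levels, Tef and Hlf followed Dbp only in part: Tef had 335 ± 48.0 CPM in astrocyte-like, 303 ± 38.3 in D2-like and 192 ± 24.4 in glutamate neuron-like nuclei, and Hlf 328 ± 70.8, 314 ± 50.6 and 230.0 ± 44.8. The nuclear receptors that oppose Nr1d1 at its DNA sites were also highest in astrocyte-like nuclei among these 3 classes, Rora with 172 ± 34.5 and Rorb with 103 ± 25.1 CPM, against 45.1 ± 9.96 and 0.894 ± 0.815 in D2-like nuclei.

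Genes induced by activity or by glucocorticoids were set beside Per1 and Per2. Of the 10 activity genes, 0 of 63 tests passed for pairing in edgeR (adjusted p), and 1 of 63 (1.59%) had p under 0.05 before adjustment, beside 5.42% of all tests. Of the glucocorticoid list, 4 of 6 genes were tested, and 0 of 31 tests passed for pairing in edgeR, and 5 of 31 (16.1%; 1 higher and 4 lower in mates) had p under 0.05 before adjustment, beside the same 5.42%. Sgk1 had a lower mean in mates in all nuclei (log2 difference -0.44, SE 0.15, edgeR p = 0.00724, adjusted p = 0.698), in oligodendrocyte-like (-0.47) and in precursor-like nuclei (-0.55). Cdkn1a had a lower mean in mates in D2-like (-0.49) and a higher one in glutamate neuron-like nuclei (0.52), and 15 of the 31 differences were positive.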

How the data were processed

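Single-nucleus libraries of 40 prairie voles were deposited by the authors as whole-number UMI counts per gene and barcode, made with Cell Ranger 3.1.0 per the submitters' processing notes. The genome build, annotation and treatment of intronic reads are not given in the sources used here. A count of intronic reads would change levels in nuclei, and genes are compared only with themselves. Barcodes under 500 UMIs (6375), then over 5% mitochondrial UMIs (2148), and called doublets (7608, 4.09%) were removed, which left 178387 nuclei with 2905580 to 13170200 UMIs per library. All 6375 barcodes under 500 UMIs were in the library of male mate 2. Nuclei were clustered on 2000 variable genes without the clock genes and the clock-related list (30 principal components, 15 neighbours, Leiden resolution 1), and 18 of 25 clusters were named in 13 classes from marker lists, by a score set after the clusters were seen. The genes and lists were chosen with earlier results of these data known.

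Counts were summed per animal and class, with at least 20 nuclei, and fitted with edgeR 4.0.16 in R 4.3.3 (quasi-likelihood F test, TMM factors, filterByExpr, Benjamini-Hochberg adjustment over all genes of a stratum), with 1 mean per group. The couple test compared group means with and without couple terms. DESeq2 1.42.0 was an alternative. The filter passed 53 combinations of a clock gene and a stratum: Cry1 failed in astrocyte-like, oligodendrocyte-like and parvalbumin interneuron-like nuclei, Arntl and Nr1d1 in oligodendrocyte-like nuclei, only Per2 passed in precursor-like nuclei, only Dbp in vascular-like nuclei, and none in microglia-like, immature neuron-like and cholinergic interneuron-like nuclei. Correlations used log2(CPM + 5) and 100000 two-sided permutations (numpy 2.4.6, scipy 1.17.1). Replicate numbers were given in accession order and pair no animals. Named genes are the 10 clock genes, those of the clock-related list past the threshold or else the 3 with the lowest p, and the 2 most like each clock gene, of which 1 is not reported here. The scripts were tested on simulated data. Alternatives were the tool, size factors, the filter, doublets, the minimum number of nuclei, resolution, pseudocount, library blocks and leaving out 3 libraries. Counting error is part of every level, and gene detection at few UMIs limits Cry1 most.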

Additional observations from a re-analysis of the deposited data

Results flagged for a closer look

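In 5 of 82 sets of 1 clock gene in 1 group and stratum, a single animal stood far from the others by Dixon's test at the 95% level, which chance gives in about 1 of 20 sets. Per1 in astrocyte-like nuclei of male peers was 93.4 CPM in male peer 9, with the nearest at 63.1. Cry1 in glutamate neuron-like nuclei of female peers was 16.4 CPM in female peer 1, with the nearest at 9.99. Arntl in all nuclei of male peers was 28 CPM in male peer 2, the lowest of all 40 animals, with the nearest at 37. Dbp in glutamate neuron-like nuclei of female peers was 107 CPM in female peer 2 (nearest 85.8), and in oligodendrocyte-like nuclei of male peers it was 82.1 CPM in male peer 6 (nearest 51). No animal was named more than once. The 82 sets do not cover every group in every stratum. All 5 flagged sets are of peers, in groups of 8 or 10 animals, so they do not compare peers with mates.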

How the results depend on the processing

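No clock gene was called for pairing, sex or their interaction under any alternative, and no called result changed direction. Correlations near 0 that were not called did change sign, as for Clock between astrocyte-like and oligodendrocyte-like nuclei (0.06, and -0.05 with block means removed). Over all genes, pairing gave 0 calls, 1 with DESeq2 and 4 with no filter on low counts, and the interaction gave 0 and 2 with no filter. The couple test was the most dependent on settings: 844 calls over all genes became 5541 with DESeq2 and 11122 with no filter, and 514 to 1107 when 1 of 3 libraries was left out with its couple. Its 1 clock gene call became 2 with DESeq2, 7 with no filter and 0 with doublets kept, and 0 when any 1 of male mate 2, female peer 1 and male peer 1 was left out. With the replicate block of 10 library numbers, the couple test gave 71 calls over all genes and 0 clock genes. Shared variation between classes gave 30762 calls over all genes and 19088 on the means of couples, where fewer values enter. In the 3 neuron classes, an alternative added after seeing the data, the 3 called pairs of clock genes became 0 on the means of couples, 0 without the 2 farthest animals 1 with the means of blocks removed (replicate block), 2 with group means removed, 2 without male mate 2, and 4 with doublets kept or at double clustering resolution. The cause was not tested for these changes except where fewer values enter. Of the values for single genes that were followed over settings, 485 were counted as the same, 16 lost the call and 3 gained it under the alternatives listed at the start. Under alternatives added after seeing the data, 53 were counted as the same and 13 lost the call. Values counted as the same kept their side of the threshold, except 21 class levels, which have none. Replicate numbers were given in accession order and pair no animals. Each couple holds 1 pairing type, so pairing was not compared within couples, and sex was not tested within the 11 mate couples. With the replicate block of library numbers, pairing still gave 0 calls. Depth limits Cry1 and the small classes, with a median of 4 UMIs per animal for Cry1 in astrocyte-like and oligodendrocyte-like nuclei.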

Other observations

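Clusters left without a class name also held clock genes, and their levels are given as a description. A cluster of 5368 nuclei was led by Fosb, Nr4a3, Npas4, Nr4a1, Arc and Fos, genes switched on by neuronal activity. In its 39 animals Per1 was 154 ± 45.9 CPM, against 72.4 in D1-like nuclei of the same animals (higher in 38 of 39) and 69.1 in D2-like nuclei (39 of 39). Per2 was 237 ± 38.2 CPM, above both in 39 of 39 and above glutamate neuron-like nuclei in 36 of 38. Clock was 58.1 ± 20.9 CPM, higher than in D1-like nuclei in 22 of 39, and Dbp was 172 ± 41.2 CPM, higher than in D1-like nuclei in 4 of 39. The clock genes were left out of the variable genes of the clustering, but genes that vary with them were not.

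A cluster of 12729 nuclei led by Stmn1 and Cck had 70.3 ± 24.1 CPM of Per2, below D1-like nuclei in 40 of 40 animals and below glutamate neuron-like nuclei in 39 of 39, with 125 ± 25.9 CPM of Dbp. Mitochondrial transcripts were also among its leading genes, and its nuclei had 0.626 of the median depth of their libraries. A cluster led by Cfap43, a gene of motile cilia (2876 nuclei, 36 animals), had 31.9 ± 24.5 CPM of Clock and 82.0 ± 41.9 CPM of Nr1d1.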
